A study of Mus musculus with 6 samples.

Results

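Chemokine and inflammatory cytokine genes were followed in haematopoietic stem cells (HSCs) sorted by their mitochondrial dye signal. The set held 10 genes, chosen by name and in part for opposite differences between the 2 groups compared here, out of 28786 genes in the deposited table. It consisted of 5 CC chemokines (Ccl3, Ccl4, Ccl5, Ccl6 and Ccl9), 2 CXC chemokines (Cxcl2 and Cxcl10) and 3 cytokines (Tnf, Ltb and Il1b). Each gene was matched to 1 row, and all 10 passed the filter on low counts.

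The groups were 3 TMRM-high and 3 TMRM-low libraries, each made from 1500 sorted bone marrow cells. TMRM is a positively charged dye that collects in mitochondria with a polarised inner membrane. All 6 libraries came from wild type C57BL/6 mice aged 6 to 8 weeks and from the same gate, which took cells without lineage markers or CD48 and with Sca1, c-Kit and CD150. Whether a group's libraries were separate or pooled mice, or portions of 1 sort, is not stated in the labels, so the spread between libraries may be technical.

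Chemokines are small secreted proteins that attract leukocytes through G protein-coupled receptors, and their families are named for the spacing of the first cysteines. TNF and interleukin-1 beta are released by activated myeloid cells and act on many cell types, HSCs among them, while lymphotoxin beta is a membrane protein that anchors lymphotoxin alpha on lymphocytes. Many of these genes are kept silent at rest, are switched on within minutes to hours by NF-kappa-B and interferon regulatory factors, and give messages that are quickly degraded. CCL3 is also known as an inhibitor of the proliferation of haematopoietic stem and progenitor cells.

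The upstream sequences of 3 members are shown: Cxcl10, which had the largest difference toward TMRM-high, and the neighbours Tnf and Ltb, which differed in opposite directions. Each runs 5′ to 3′ toward the gene from position -220 relative to the RefSeq start site, in RefSeq's sequence of GRCm38.p6, and ends before the first transcribed base of either RefSeq or GENCODE. Capitals mark matches, on either strand, to the letters TGANTCA of an AP-1 site and TATAAA of a TATA box, which do not overlap in these windows. The windows are chr5:92348890-92349109 on the minus strand for Cxcl10, chr17:35202008-35202227 on the minus strand for Tnf and chr17:35194287-35194438 on the plus strand for Ltb.
Cxcl10: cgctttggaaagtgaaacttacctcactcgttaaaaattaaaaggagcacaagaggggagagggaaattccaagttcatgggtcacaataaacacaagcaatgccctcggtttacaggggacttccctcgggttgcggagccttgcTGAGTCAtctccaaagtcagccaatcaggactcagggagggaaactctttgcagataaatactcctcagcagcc
Tnf: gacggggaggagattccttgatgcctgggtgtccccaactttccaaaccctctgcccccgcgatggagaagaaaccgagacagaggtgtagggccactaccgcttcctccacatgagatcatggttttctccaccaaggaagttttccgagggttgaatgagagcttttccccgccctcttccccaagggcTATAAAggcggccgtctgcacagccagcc
Ltb: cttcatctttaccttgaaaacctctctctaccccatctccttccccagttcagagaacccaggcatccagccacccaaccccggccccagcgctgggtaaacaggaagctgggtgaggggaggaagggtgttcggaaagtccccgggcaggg

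The Cxcl10 window held the AP-1 letters at -74 to -68, and the Tnf window held the TATA letters at -29 to -24. The Ltb window, which ends at -69, held neither, and neither was found in the full 250 bases before the RefSeq start of Ltb. Windows were matched for 8 of the 10 members (not for Ccl4 and Ccl5). Within 250 bases before the start, the AP-1 letters were in 2 of the 8 (Cxcl10 and Ccl9), against 6.75% of 32851 RefSeq promoters searched in the same way. The TATA letters were in 3 (Tnf, Il1b and Ccl9, where a pair of matches overlapped), against 12.4%. A match describes letters only, and these 2 motifs were the only ones searched that are reported. Sites of NF-kappa-B and of interferon regulatory factors are not marked, so the lower-case letters do not show that such sites are absent.

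Levels are given as CPM, counts scaled to a common library size, in the order of replicates 1, 2 and 3, and each log2 fold change is the TMRM-high level less the TMRM-low level, with a standard error (SE) from edgeR's quasi-likelihood model fitted to all 13662 tested genes. The total of estimated counts lay between 14270069 and 22070594 in TMRM-high libraries and between 15930495 and 18431567 in TMRM-low libraries. The TMRM-high libraries lay much closer to each other: chi-square per degree of freedom over genes was 3.98 to 6.74 between pairs of TMRM-high libraries and 46.0 to 51.4 between pairs of TMRM-low libraries. Counting noise by itself would give about 1. Because the members were partly chosen on this contrast, their differences are given as descriptions without a test.

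Of the 10 members, 5 met the call of higher in TMRM-high libraries (Cxcl10, Cxcl2, Tnf, Ccl4 and Ccl9), 2 met that of lower (Ccl5 and Ltb), and 3 met neither (Ccl3, Ccl6 and Il1b). The call was an edgeR quasi-likelihood adjusted p below 0.05, which 11.0% of all tested genes met, 5.84% as higher and 5.12% as lower. The groups did not overlap for the same 5 and 2 members, as for 18.4% of tested genes with TMRM-high above and 17.0% with TMRM-high below, 35.4% together. With the TMRM-high libraries summed into 1, 1 member was called higher and 2 lower, against 0.629% and 0.307% of tested genes (0.937% either way). Ccl9 and Tnf also lost the call when any 1 TMRM-high library was left out. Nothing is read from these counts, since the contrast had a part in choosing the genes. In RNA from many cells, fewer cells of a type and less RNA per cell cannot be told apart in any of these values.

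**Figure D1:**
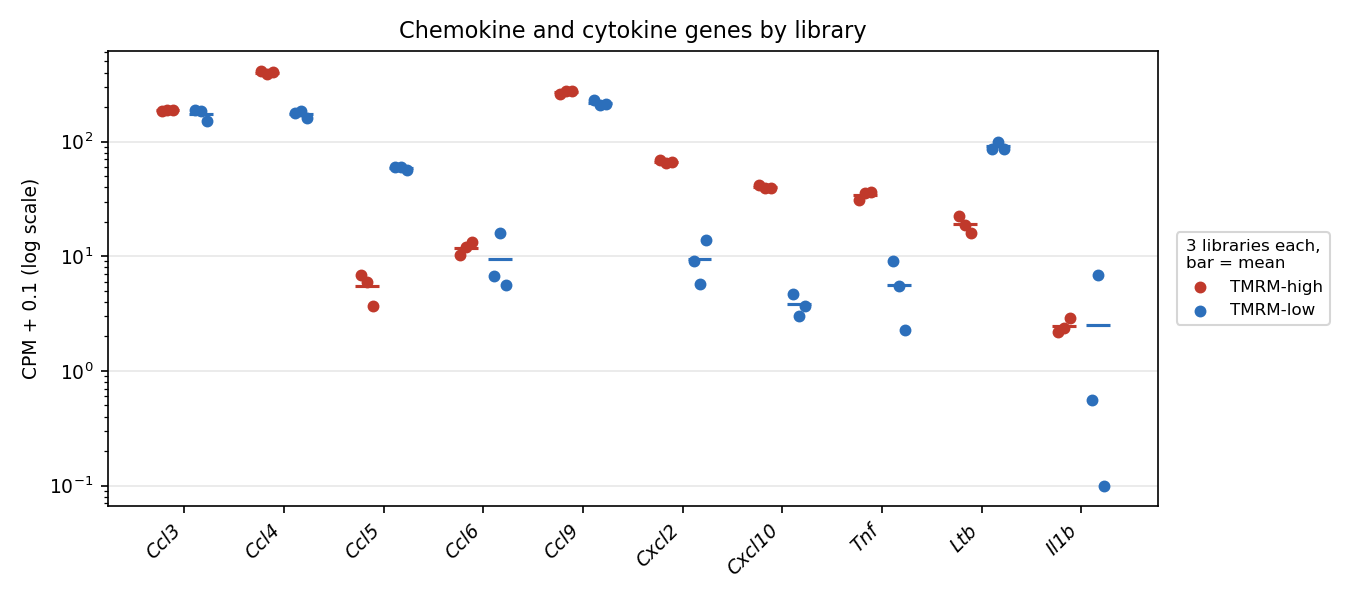
Level of each chemokine and cytokine gene in each library, as CPM plus 0.1 on a log scale, with TMRM-high to the left of TMRM-low; points are libraries (3 per group) and bars are means. Cxcl10, Cxcl2 and Tnf lay higher and Ccl5 and Ltb lower in every TMRM-high library, while Ccl3, Ccl6 and Il1b overlapped, and 1 TMRM-low library had no Il1b count.

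Cxcl10 encodes a chemokine that draws T and NK cells through CXCR3 and is a classical interferon-induced gene. The gene (ENSMUSG00000034855) lies on chromosome 5, at 92346638 to 92348889 on the minus strand of GRCm38, inside the longer gene Art3. Cxcl10 had 41.8, 39.1 and 39.2 CPM in TMRM-high libraries, against 4.63, 2.93 and 3.59 CPM in TMRM-low libraries. The TMRM-high values lay within a narrow band about 10.8-fold above the TMRM-low mean, with a log2 fold change of 3.42 (SE 0.250). Art3 itself averaged 1.07 CPM in TMRM-high libraries, against 0.891 CPM in TMRM-low libraries.

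Cxcl2 encodes a neutrophil attractant that acts through CXCR2. The gene (ENSMUSG00000058427) lies on the same chromosome at 90903871 to 90905938, plus strand. Cxcl2 had 68.5, 65.0 and 66.6 CPM in TMRM-high libraries, against 8.97, 5.62 and 13.8 CPM in TMRM-low libraries. Every TMRM-high value was above every TMRM-low value, and the TMRM-low libraries differed among themselves by more than the TMRM-high ones did. The means stood 7.06-fold apart (log2 fold change 2.82, SE 0.311). Cxcl2 shares 7.59% of its stretches of 31 bases with Cxcl3, which averaged 0.0997 CPM in TMRM-high libraries, against 0.0363 CPM in TMRM-low libraries.

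The macrophage inflammatory proteins Ccl3 and Ccl4 did not differ alike. Ccl4 (MIP-1 beta, ENSMUSG00000018930), an attractant of monocytes and T cells, had 409, 389 and 403 CPM in TMRM-high libraries, against 178, 184 and 161 CPM in TMRM-low libraries. The groups stood apart by 2.30-fold (log2 fold change 1.20, SE 0.0723). Ccl3 (MIP-1 alpha, ENSMUSG00000000982), its neighbour and a ligand of CCR1, had 185, 188 and 188 CPM in TMRM-high libraries, against 189, 184 and 151 CPM in TMRM-low libraries. The Ccl3 groups overlapped, with a log2 fold change of 0.10 (SE 0.0975). The ratio of Ccl4 to Ccl3, each per kb of exon, was therefore 2.56, 2.40 and 2.49 in TMRM-high libraries, against 1.09, 1.16 and 1.23 in TMRM-low libraries. Every TMRM-high ratio lay above every TMRM-low ratio, which is a description only, since the genes were chosen in part on this contrast.

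Ccl5 (RANTES, ENSMUSG00000035042), a ligand of CCR1 and CCR3 that is made in quantity by T and NK cells, went the other way. Ccl5 had 6.71, 5.90 and 3.61 CPM in TMRM-high libraries, against 60.5, 60.3 and 56.5 CPM in TMRM-low libraries. The TMRM-low level was 10.9-fold above the TMRM-high level (log2 fold change -3.44, SE 0.256). Of the 10 members, Ccl5 was the most even across TMRM-low libraries, where its coefficient of variation (CV) was 3.79%, and the most uneven across TMRM-high libraries, where it was 29.8%.

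Ccl6 and Ccl9 encode CCR1 ligands of rodents that are made by myeloid cells. Ccl9 (ENSMUSG00000019122) had 261, 276 and 276 CPM in TMRM-high libraries, against 229, 209 and 212 CPM in TMRM-low libraries. The groups did not overlap, but the difference was small, 1.25-fold (log2 fold change 0.32, SE 0.0690). Ccl6 (ENSMUSG00000018927) had 10.1, 11.8 and 13.3 CPM in TMRM-high libraries, against 6.65, 15.7 and 5.50 CPM in TMRM-low libraries. TMRM-low replicate 2 lay above all TMRM-high libraries and the other two below them, so the groups overlapped (log2 fold change 0.34, SE 0.442). Without TMRM-low replicate 2 the Ccl6 log2 fold change was 0.95.

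These 5 CC chemokine genes lie within 138.906 kb of chromosome 11, with Ccl5 at 83525778 to 83530518, Ccl9 at 83572919 to 83578636, Ccl6 at 83587882 to 83593087 and Ccl3 at 83647844 to 83649355, all on the minus strand, and Ccl4 at 83662584 to 83664683 on the plus strand. Within this span the log2 fold changes ran between -3.44 for Ccl5 at one end and 1.20 for Ccl4 at the other. Of the 7 other genes tested in the span or within 100 kb of it, 2 passed as higher, 1 as lower and 4 not at all. Wfdc21, a gene of the whey acidic protein family, averaged 63.1 ± 2.89 CPM in TMRM-high libraries, against 1.82 ± 0.896 CPM in TMRM-low libraries (SD, n = 3 each; log2 fold change 5.10, edgeR adjusted p = 0.00014). Wfdc17, of the same family and in the same stretch beyond Ccl4, averaged 24.9 ± 1.83 CPM in TMRM-high libraries, against 171 ± 11.9 CPM in TMRM-low libraries (log2 fold change -2.78, edgeR adjusted p = 7.3e-06). Neighbouring genes of this region thus had differences of either sign.

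**Figure D2:**
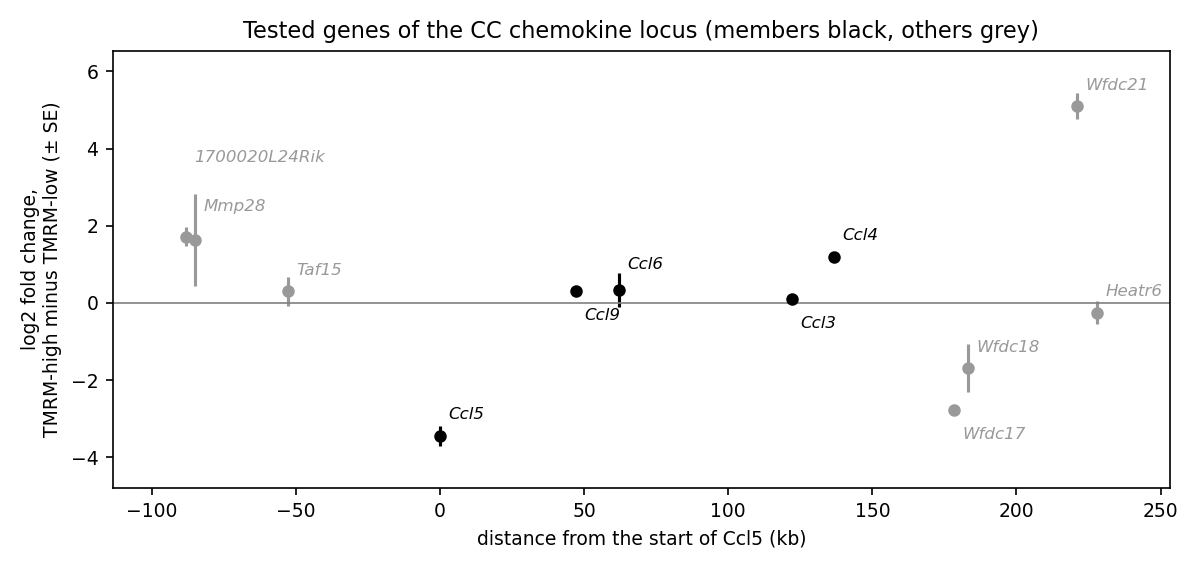
Log2 fold change (TMRM-high minus TMRM-low, bars ± SE) of each tested gene in the CC chemokine region of chromosome 11 against its distance in kb from the start of Ccl5; members of the set are black, other genes grey. Ccl5 lay at -3.44 and Ccl4 at 1.20, with Ccl9, Ccl6 and Ccl3 between 0.10 and 0.34.

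Tnf and Ltb, which lie tail to tail within 7.569 kb of chromosome 17, differed in opposite directions. Tnf (ENSMUSG00000024401, 35199381 to 35202007, minus strand) encodes tumour necrosis factor. It had 30.6, 35.3 and 36.2 CPM in TMRM-high libraries, against 8.97, 5.43 and 2.18 CPM in TMRM-low libraries. The groups stood 6.16-fold apart, and the TMRM-low libraries were spread over several-fold among themselves (log2 fold change 2.62, SE 0.470).

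Ltb (ENSMUSG00000024399, 35194439 to 35196320, plus strand) had 22.5, 18.6 and 15.8 CPM in TMRM-high libraries, against 86.8, 98.4 and 86.6 CPM in TMRM-low libraries. The TMRM-low level was 4.78-fold above the TMRM-high level (log2 fold change -2.25, SE 0.168). Per kb of exon, Ltb stood at 0.794, 0.570 and 0.473 of the Tnf level in TMRM-high libraries, against 10.5, 19.6 and 43.0 times the Tnf level in TMRM-low libraries. The order of the pair was thus opposite in the groups, in every library. Lta, whose product pairs with lymphotoxin beta and whose gene lies next to Tnf, averaged 1.29 ± 0.230 CPM in TMRM-high libraries, against 0.850 ± 0.846 CPM in TMRM-low libraries (SD, n = 3 each) and did not pass (edgeR adjusted p = 0.76). Of the 15 other genes tested within 100 kb of the pair, 2 were lower (Gpank1, and the class I histocompatibility gene H2-D1 with a log2 fold change of -0.26) and 13 did not pass.

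Il1b (ENSMUSG00000027398, chromosome 2, 129364570 to 129371139, minus strand), the gene of interleukin-1 beta, was the member with the fewest counts. It had 46, 44 and 40 counts in TMRM-high libraries (2.09, 2.26 and 2.78 CPM), against 8, 109 and 0 counts in TMRM-low libraries (0.463, 6.80 and 0 CPM). The TMRM-high libraries were alike, while 1 TMRM-low library held more than any of them and another held none, which allows up to 0.163 CPM there (3 counts). The log2 fold change was -0.03 (SE 1.40), and without TMRM-low replicate 2 it was 3.34. TMRM-low replicate 2 was also the TMRM-low library with the highest Ccl6. An antisense gene, Il1bos, overlaps Il1b, and the libraries do not mark strand.

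Compared per kb of exon, the levels of the members spanned more than 2 orders of magnitude within each group. In TMRM-high libraries the order was Ccl4 (606 ± 15.6 CPM per kb, SD, n = 3), Ccl3 (244 ± 2.19), Ccl9 (89.0 ± 2.97), Cxcl2 (32.3 ± 0.848), Tnf (20.8 ± 1.84), Cxcl10 (17.8 ± 0.692), Ltb (12.5 ± 2.19), Ccl6 (6.54 ± 0.878), Ccl5 (5.63 ± 1.68) and Il1b (1.24 ± 0.189). All neighbours in this order kept their libraries apart except Ccl6 and Ccl5. In TMRM-low libraries the order was Ccl4 (264 ± 18.4 CPM per kb), Ccl3 (228 ± 26.9), Ccl9 (71.1 ± 3.56), Ccl5 (61.5 ± 2.33), Ltb (59.8 ± 4.43), Ccl6 (5.18 ± 3.12), Cxcl2 (4.57 ± 1.98), Tnf (3.37 ± 2.07), Cxcl10 (1.65 ± 0.380) and Il1b (1.27 ± 1.99). There Ccl4 overlapped with Ccl3, Ccl5 with Ltb, and each of the last 5 with its neighbour.

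Ccl3, Ccl4 and Ccl9 headed both orders. Together they made up 90.5% to 90.9% of the summed level per kb of the 10 members in TMRM-high libraries and 79.9% to 81.3% in TMRM-low libraries. Ccl5 and Ltb took the places below them in TMRM-low libraries, where Cxcl2, Tnf and Cxcl10 took them in TMRM-high libraries. The summed level itself was 1021 to 1045 CPM per kb in TMRM-high libraries, against 639 to 734 CPM per kb in TMRM-low libraries.

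Spread between libraries also differed among members. The CV was smaller in TMRM-high than in TMRM-low libraries for 8 of the 10, the exceptions being Ccl5 and Ltb, the pair with the lower TMRM-high levels. The median CV of the members was 6.37% in TMRM-high libraries, against 17.4% in TMRM-low libraries, while over tested genes of at least 5 CPM it was 6.18% in TMRM-high libraries, against 22.4% in TMRM-low libraries. The smaller spread in TMRM-high libraries was thus shared with tested genes at large and is no trait of the members. Il1b itself lay below 5 CPM. Chi-square per degree of freedom between the 3 TMRM-low libraries was 106 for Il1b, 57.7 for Ccl6, 43.6 for Ccl3 and 37.6 for Tnf, but 3.31 for Cxcl10 and 1.51 for Ccl5. The value rises with the number of counts, so it does not order the members by steadiness: by CV over the TMRM-low libraries Ccl5 (3.79%), Ccl9 (5.00%), Ccl4 (6.96%) and Ltb (7.42%) were the most even, and Cxcl10 was at 23.0%.

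The messages differed in a feature that played no part in choosing them. TATTTAT, a core of the AU-rich elements through which messages are degraded, occurred 8 times in the longest annotated 3′ untranslated region of Tnf (767 bases), 7 times in that of Cxcl2 (1497 bases) and 3 times in that of Il1b (462 bases). It occurred once each in Ccl3 and Ccl4 and was not in those of Cxcl10, Ccl5, Ccl6, Ccl9 and Ltb. Of genes with a region of like length, within 20%, 19.2% had at least 1 match beside Tnf, 33.4% beside Cxcl2, 10.7% beside Il1b, 9.43% beside Ccl3 and 7.99% beside Ccl4. For the members without a match the like-length share was 4.71% for Ltb (177 bases), 5.36% for Ccl5 (202 bases), 22.6% for Ccl6 (946 bases), 24.4% for Cxcl10 (999 bases) and 46.8% for Ccl9 (2468 bases), so that the letters are uncommon in regions as short as those of Ltb and Ccl5.

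Among 31 other chemokine ligand genes, 21 were under 1 CPM in both groups, and of the 13 tested 2 were higher in TMRM-high libraries (Pf4 and Cxcl1), 2 were lower (Xcl1 and Ccl27a) and 9 did not pass. The median log2 fold change of the 13 was 1.20, beside -0.03 over all tested genes. That median was the value of Cxcl9, which averaged under 1 CPM in both groups and did not pass. Pf4 encodes platelet factor 4, a chemokine of megakaryocytes that was reported to keep HSCs quiescent. Pf4 had 197, 182 and 188 CPM in TMRM-high libraries, against 21.9, 19.5 and 36.7 CPM in TMRM-low libraries (log2 fold change 2.86, SE 0.234, edgeR adjusted p = 0.00035). Of the 8 megakaryocyte and platelet markers, Pf4 among them, 2 were higher (Pf4 and Itga2b) and 1 was lower. They summed to 450 to 461 CPM in TMRM-high libraries, against 236 to 267 CPM in TMRM-low libraries, and the 7 without Pf4 summed to 264 to 270 CPM in TMRM-high libraries, against 199 to 247 CPM in TMRM-low libraries. Xcl1, lymphotactin, a chemokine of NK and T cells, had 0.680, 1.18 and 1.11 CPM in TMRM-high libraries, against 10.5, 7.11 and 6.59 CPM in TMRM-low libraries (log2 fold change -3.02, SE 0.486, edgeR adjusted p = 0.0079). Xcl1 lost its call when any 1 TMRM-high library was left out.

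Ccl27a averaged 5.50 ± 1.74 CPM in TMRM-high libraries, against 18.8 ± 3.40 CPM in TMRM-low libraries (SD, n = 3 each; log2 fold change -1.78, edgeR adjusted p = 0.015). It did not pass without TMRM-high replicate 1 or 2. Its count is uncertain, since 57.0% of its stretches of 31 bases are shared with other genes and it overlaps Il11ra1, which averaged 36.3 CPM in TMRM-high libraries, against 98.1 CPM in TMRM-low libraries. Cxcl1, a neutrophil attractant beside Cxcl2, was chosen for mention after its values were seen. It had 44 counts in all TMRM-high libraries together and 1 in the TMRM-low libraries, a ratio of CPM of 40.6 with an exact 95% interval of 6.92 to 1641 for counting error. Cxcl1 did not pass without TMRM-high replicate 3. Without TMRM-high replicate 1 or 2 it fell below the filter on low counts and was not tested, so its call was lost there too. Cxcl9, which encodes another CXCR3 ligand, and Cxcl11, which the annotation lists as a polymorphic pseudogene, lie next to Cxcl10 and did not pass. They averaged 0.977 ± 0.0899 and 0.492 ± 0.0758 CPM in TMRM-high libraries, against 0.421 ± 0.256 and 0.675 ± 0.148 CPM in TMRM-low libraries, in that order of genes (edgeR adjusted p = 0.32 and 0.69).

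**Figure D3:**
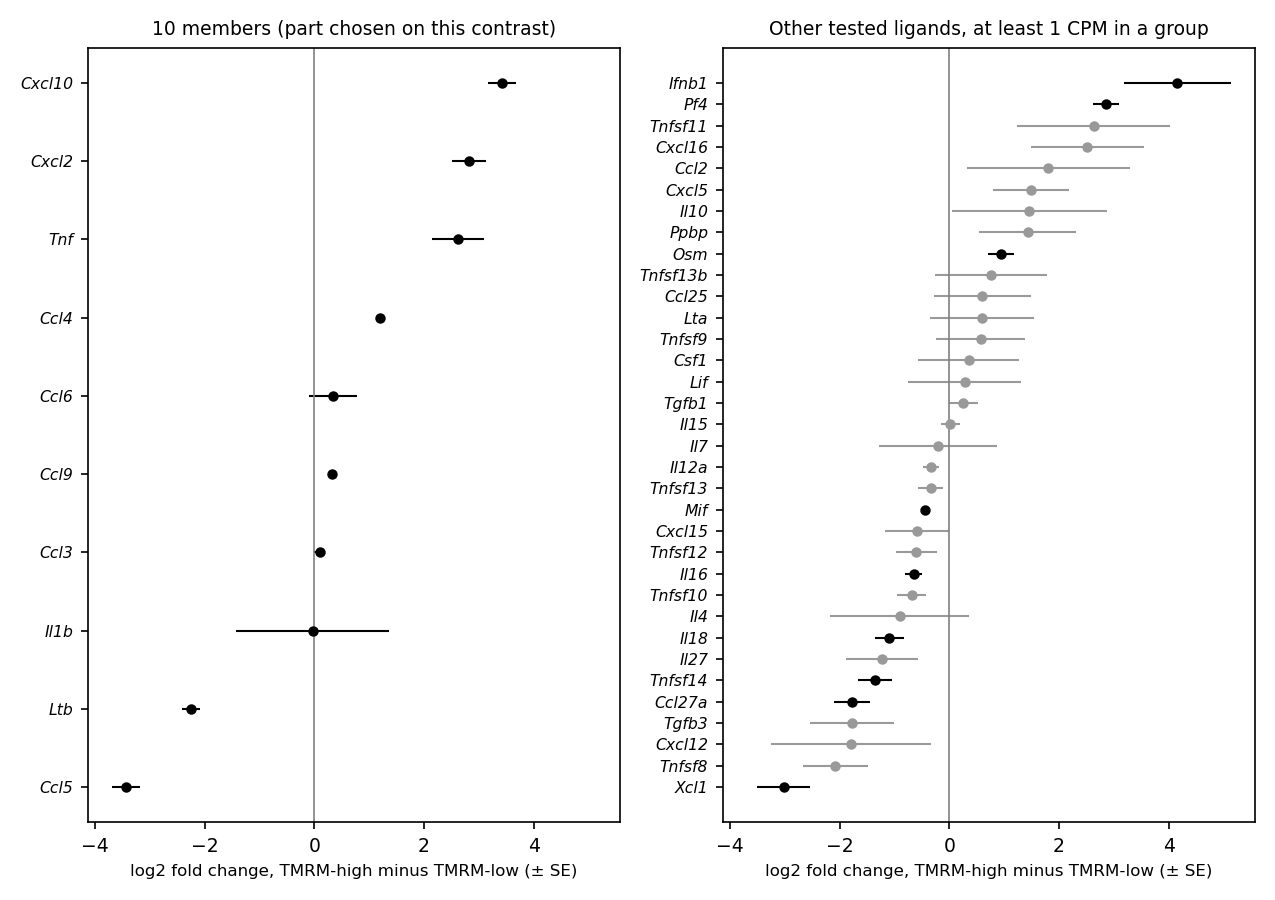
Log2 fold change (TMRM-high minus TMRM-low, bars ± SE) of the 10 members on the left and of the 34 other tested chemokine and cytokine ligands with at least 1 CPM in a group on the right, where black marks genes that passed at an edgeR adjusted p below 0.05. Members ran between -3.44 for Ccl5 and 3.42 for Cxcl10, and Pf4 at 2.86 and Xcl1 at -3.02 were among the other chemokines that passed.

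Of 49 other cytokine ligand genes in the table, 27 were tested, of which 3 were higher in TMRM-high libraries (Osm, Il6 and Ifnb1), 4 were lower (Mif, Il16, Il18 and Tnfsf14) and 20 did not pass. Their median log2 fold change was -0.21. Osm, oncostatin M, a cytokine of the interleukin-6 family, averaged 99.3 ± 8.68 CPM in TMRM-high libraries, against 51.8 ± 17.7 CPM in TMRM-low libraries (SD, n = 3 each; log2 fold change 0.94, edgeR adjusted p = 0.046). Mif, macrophage migration inhibitory factor, averaged 414 ± 22.6 CPM in TMRM-high libraries, against 561 ± 27.7 CPM in TMRM-low libraries (log2 fold change -0.44, edgeR adjusted p = 0.0057), but 39.1% of its stretches of 31 bases are shared with pseudogenes. Il18, an interleukin-1 family cytokine that caspase-1 activates, averaged 7.99 ± 1.31 CPM in TMRM-high libraries, against 17.1 ± 0.475 CPM in TMRM-low libraries (log2 fold change -1.09, edgeR adjusted p = 0.040). Il16, a T cell attractant, averaged 82.8 ± 8.07 CPM in TMRM-high libraries, against 130 ± 25.9 CPM in TMRM-low libraries (log2 fold change -0.65, edgeR adjusted p = 0.038). Tnfsf14, LIGHT, a second ligand of the lymphotoxin beta receptor, averaged 6.32 ± 0.987 CPM in TMRM-high libraries, against 16.1 ± 3.54 CPM in TMRM-low libraries (log2 fold change -1.35, edgeR adjusted p = 0.031). The calls of Osm, Il16, Il18 and Tnfsf14 were lost when any 1 TMRM-high library was left out, that of Mif without TMRM-high replicate 3, that of Osm also without TMRM-low replicate 1 and that of Il16 also without TMRM-low replicate 2.

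Il6 and Ifnb1, named after their values were seen, rest on few counts. Il6 had 52 counts in the TMRM-high libraries together and 2 in the TMRM-low libraries, a ratio of CPM of 24.0 (exact 95% interval for counting error 6.32 to 204). Ifnb1, interferon beta, had 79 counts in the TMRM-high libraries and 4 in the TMRM-low libraries, a ratio of 18.2 (6.85 to 68.6). Neither passed when any 1 TMRM-high library was left out, nor did Il6 without TMRM-low replicate 2 or 3 or Ifnb1 without TMRM-low replicate 1. Il1a, which lies near Il1b and encodes its sister cytokine, averaged 0.811 ± 0.245 CPM in TMRM-high libraries, against 0.307 ± 0.440 CPM in TMRM-low libraries (SD, n = 3 each) and did not pass (edgeR adjusted p = 0.50).

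Of 29 chemokine, TNF, lymphotoxin and interleukin-1 receptor genes, 21 were tested, and by edgeR 0 were higher and 1 lower in TMRM-high libraries. At an unadjusted p below 0.05 the counts were 3 higher and 3 lower, and DESeq2 also called 0 higher. The gene that passed was Ccr2, the receptor of the monocyte attractant CCL2. Ccr2 had 27.9, 38.0 and 32.4 CPM in TMRM-high libraries, against 70.9, 76.0 and 105 CPM in TMRM-low libraries (log2 fold change -1.36, SE 0.198, edgeR adjusted p = 0.0055).

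The receptors of the members that are described here did not pass. Ccr1 averaged 3.05 ± 0.187 CPM in TMRM-high libraries, against 2.84 ± 3.41 CPM in TMRM-low libraries (SD, n = 3 each). Cxcr2, the receptor of CXCL2, averaged 23.6 ± 0.324 CPM in TMRM-high libraries, against 26.5 ± 4.88 CPM in TMRM-low libraries. Cxcr3, the receptor of CXCL10, averaged 0.900 ± 0.0759 CPM in TMRM-high libraries, against 4.76 ± 5.74 CPM in TMRM-low libraries, of which 1 had 11.4 CPM. The TMRM-low libraries were spread widely for Ccr1 and Cxcr3.

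Ltbr, the lymphotoxin beta receptor, averaged 37.0 ± 1.44 CPM in TMRM-high libraries, against 35.3 ± 7.34 CPM in TMRM-low libraries (SD, n = 3 each). Tnfrsf1a, the first TNF receptor, averaged 60.6 ± 5.83 CPM in TMRM-high libraries, against 77.6 ± 12.3 CPM in TMRM-low libraries. Tnfrsf1b, the second, averaged 38.5 ± 1.92 CPM in TMRM-high libraries, against 26.8 ± 19.1 CPM in TMRM-low libraries, and it passed without TMRM-low replicate 3 (log2 fold change 1.27). The signalling receptor of interleukin-1, Il1r1, averaged 15.6 ± 0.461 CPM in TMRM-high libraries, against 24.7 ± 10.5 CPM in TMRM-low libraries, and it passed without TMRM-low replicate 2 (log2 fold change -0.98). Il1rap, its partner chain, averaged 11.9 ± 2.11 CPM in TMRM-high libraries, against 12.5 ± 3.43 CPM in TMRM-low libraries. The decoy receptor Il1r2 averaged 5.50 ± 0.970 CPM in TMRM-high libraries, against 1.62 ± 2.50 CPM in TMRM-low libraries, and it passed without TMRM-low replicate 1 (log2 fold change 4.91). Ccr3, a receptor of CCL5, averaged 0.602 ± 0.0415 CPM in TMRM-high libraries, against 0.0386 ± 0.0668 CPM in TMRM-low libraries, with an edgeR adjusted p of 0.067, and it passed without TMRM-low replicate 1.

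**Figure D4:**
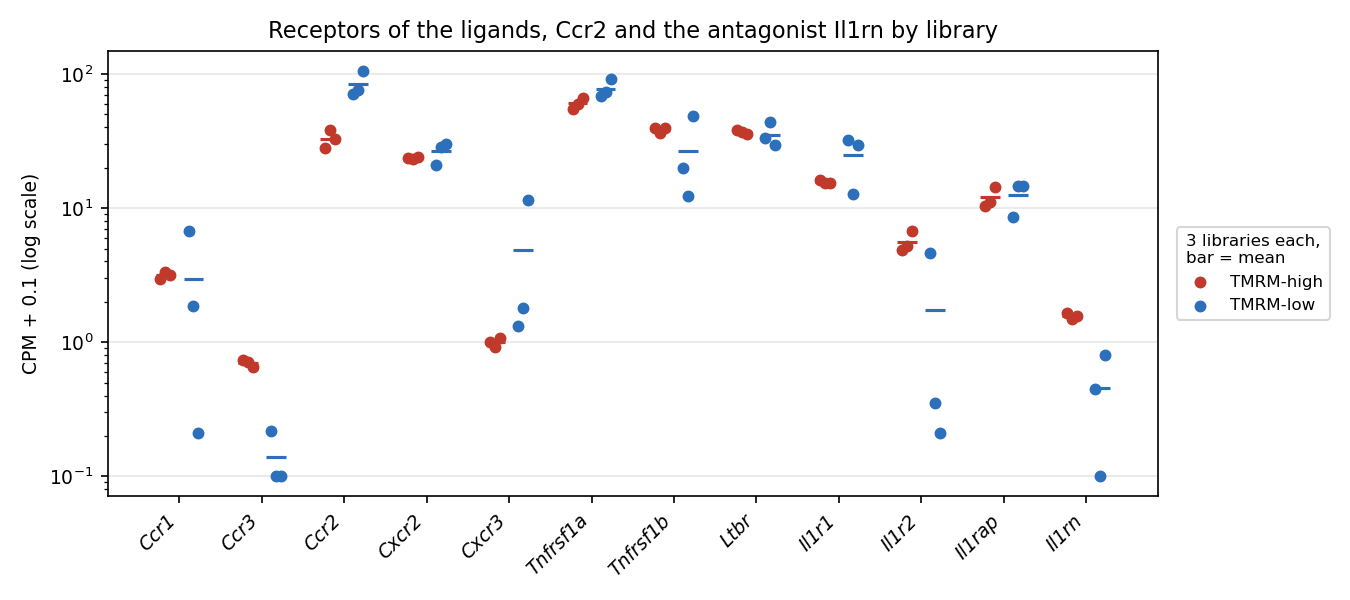
Level of receptors of the members, of Ccr2 and of the interleukin-1 antagonist Il1rn in each library, as CPM plus 0.1 on a log scale, with TMRM-high to the left of TMRM-low; points are libraries (3 per group) and bars are means. Ccr2 lay lower in every TMRM-high library, and Cxcr3, Ccr1 and Il1r2 were spread widely over the TMRM-low libraries.

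Of 12 genes that process or antagonise these cytokines, all were tested, and 1 was higher, 1 lower and 10 did not pass, with a median log2 fold change of 0.22. Nlrp3, the sensor of the inflammasome that leads to cleavage of the interleukin-1 beta precursor, had 7.67, 5.85 and 5.90 CPM in TMRM-high libraries, against 0.463, 0.936 and 0.381 CPM in TMRM-low libraries (log2 fold change 3.44, SE 0.565, edgeR adjusted p = 0.0087). Pycard, the adaptor of the same complex, had 89.8, 88.3 and 84.3 CPM in TMRM-high libraries, against 145, 121 and 118 CPM in TMRM-low libraries (log2 fold change -0.55, SE 0.108, edgeR adjusted p = 0.018). Both calls were lost when any 1 TMRM-high library was left out. Casp1, the protease itself, averaged 45.2 ± 1.73 CPM in TMRM-high libraries, against 67.7 ± 23.2 CPM in TMRM-low libraries (SD, n = 3 each; edgeR adjusted p = 0.16). The antagonist Il1rn averaged 1.46 ± 0.0787 CPM in TMRM-high libraries, against 0.352 ± 0.354 CPM in TMRM-low libraries (edgeR adjusted p = 0.27).

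Of 22 regulators of chemokine and cytokine genes, all tested, 4 were higher, 3 lower and 15 did not pass, with a median log2 fold change of -0.02. The genes that were higher were Nfkbia, Nfkbiz, Tnfaip3 and Zfp36. Nfkbia, which holds NF-kappa-B in the cytoplasm and is itself induced by it, had 635, 608 and 604 CPM in TMRM-high libraries, against 223, 172 and 214 CPM in TMRM-low libraries (log2 fold change 1.60, SE 0.0996, edgeR adjusted p = 1e-04). Tnfaip3 (A20), an NF-kappa-B-induced inhibitor of TNF signalling, had 172, 161 and 178 CPM in TMRM-high libraries, against 32.6, 23.9 and 35.9 CPM in TMRM-low libraries (log2 fold change 2.47, SE 0.159, edgeR adjusted p = 0.00012). Nfkbiz, a nuclear cofactor, averaged 212 ± 11.0 CPM in TMRM-high libraries, against 82.6 ± 11.6 CPM in TMRM-low libraries (SD, n = 3 each; log2 fold change 1.36, edgeR adjusted p = 0.00044). Zfp36 (tristetraprolin), which binds AU-rich elements and speeds the decay of Tnf messages, averaged 1298 ± 24.9 CPM in TMRM-high libraries, against 661 ± 33.4 CPM in TMRM-low libraries (log2 fold change 0.97, edgeR adjusted p = 5.4e-05). The NF-kappa-B subunits Nfkb1 and Rela did not pass. Nfkb1 averaged 116 ± 7.07 CPM in TMRM-high libraries, against 146 ± 8.17 CPM in TMRM-low libraries, and Rela averaged 112 ± 8.01 CPM in TMRM-high libraries, against 92.0 ± 19.3 CPM in TMRM-low libraries.

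Among the genes that were lower were the interferon regulatory factors Irf7 and Irf9. Irf7 had 9.57, 8.98 and 8.96 CPM in TMRM-high libraries, against 75.9, 55.5 and 79.6 CPM in TMRM-low libraries (log2 fold change -2.94, SE 0.194, edgeR adjusted p = 0.00012). Irf9 averaged 46.3 ± 1.41 CPM in TMRM-high libraries, against 91.4 ± 33.0 CPM in TMRM-low libraries (SD, n = 3 each; log2 fold change -0.98, edgeR adjusted p = 0.038), a call that was lost when any 1 TMRM-high library was left out. Cxcl10, chosen in part on this contrast, and Ifnb1, with 4 TMRM-low counts, had their higher level where Irf7 and Irf9 had the lower one. With only these groups, the same holds for any higher and any lower gene, and a link was not tested. Of the genes above that are not members, Pf4, Nfkbia, Nfkbiz, Tnfaip3, Zfp36 and Irf7 passed with the TMRM-high libraries summed into 1, and the other chemokine, cytokine, receptor, processing and regulator genes described that had passed did not.

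Markers of other cells moved with the groups as well, and their part in the differences of the chemokine and cytokine genes was not tested. The 10 HSC markers were all detected in both groups and summed to 434 to 444 CPM in TMRM-high libraries, against 709 to 818 CPM in TMRM-low libraries, with 4 lower. Granulocyte markers summed to 14493 to 14873 CPM in TMRM-high libraries, against 3529 to 3872 CPM in TMRM-low libraries, with 9 of 10 higher. Monocyte and macrophage markers summed to 880 to 905 CPM in TMRM-high libraries, against 354 to 381 CPM in TMRM-low libraries, with 3 of 11 tested higher and 3 lower. The median log2 fold change of the 11 was -0.80, so this sum does not describe the typical marker. NK and T cell markers, which bear on Ccl5, Xcl1 and Ltb, summed to 617 to 624 CPM in TMRM-high libraries, against 364 to 446 CPM in TMRM-low libraries, with 1 of 9 tested higher (Nkg7, which made up most of the TMRM-high sum) and 4 lower (Ncr1, Klrb1c, Il2rb and Cd3d).

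B cell markers summed to 470 to 478 CPM in TMRM-high libraries, against 41.1 to 45.4 CPM in TMRM-low libraries, with 8 of 8 higher and no Ms4a1 count in the TMRM-low group. As markers of lymphocytes they also bear on Ltb, which was lower in TMRM-high libraries. Basophil and mast cell markers summed to 303 to 316 CPM in TMRM-high libraries, against 44.9 to 66.6 CPM in TMRM-low libraries, with 4 of 7 higher. Dendritic cell markers summed to 255 to 259 CPM in TMRM-high libraries, against 656 to 682 CPM in TMRM-low libraries, with 3 of 7 tested lower. Immediate early and heat shock genes that respond to cell handling, which bear on Cxcl2, Tnf, Nfkbia and Zfp36, summed to 7043 to 7332 CPM in TMRM-high libraries, against 3951 to 4353 CPM in TMRM-low libraries, with 11 of 12 higher.

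The genes whose pattern over the 6 libraries was most like that of Ccl4 and of Ltb, the members with the highest mean CPM among those higher and those lower, were sought among 10357 genes by the root mean square difference of centred log2 CPM. For Ccl4 they were Ccnl1 (0.0597), Rhob (0.0653) and Gfod1 (0.0767). For Ltb they were Rpl3 (0.177), Dkkl1 (0.186) and Ifi44 (0.186). Rhob, for example, had 188, 195 and 184 CPM in TMRM-high libraries, against 84.9, 84.4 and 82.1 CPM in TMRM-low libraries. The nearest genes to Ltb were farther from it than those to Ccl4, whose libraries varied less within a group.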

How the data were processed

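RNA of 6 libraries was measured by a low-input full-length protocol with 13 cycles of PCR and paired reads of 150 bases, per the labels' protocols. Strand is not kept and molecules carry no identifiers in this protocol, so intervals cover counting error only. The tools Trim Galore 0.5.0 and Salmon, with its version given as 0.03.1, and the build GRCm38 are named in the submitters' processing notes; annotation and settings are not stated there. The authors deposited estimated counts per gene, which are not scaled; 25.2% to 29.1% of a library's values were not whole, and they were rounded for the tests. Salmon divides reads among similar transcripts.

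Symbols and positions came from GENCODE M21 on GRCm38 for 27728 of 28786 IDs. Genes were filtered by filterByExpr, scaled by TMM and fitted with edgeR 4.0.16's quasi-likelihood model (group only, robust) in R 4.3.3, with two-sided tests and Benjamini-Hochberg adjustment over all tested genes. The SE is the absolute log2 fold change over the root of F. CPM come from the rounded counts, and levels per kb use the union of annotated exons. The script was tested on simulated data. The members and gene lists were chosen with earlier results of these data known. Outside the members, the genes named are those called with a mean of at least 1 CPM in each list (for regulators up to 4 in each direction) and the receptors of the members and Il1rn; other genes were chosen after their values were seen. Some genes of the lists are counted but not reported here. Alternatives were scaling by RLE, by upper quartiles or by totals, no filter or a mean count of 50 as minimum, DESeq2 1.42.0, voom with quality weights (limma 3.58.1), the replicate block, an adjusted p below 0.10, the TMRM-high libraries summed into 1, and each library left out.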

Additional observations from a re-analysis of the deposited data

How the results depend on the processing

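No result turned its direction past the threshold under the 16 alternatives. Over them the log2 fold changes ran between 3.28 and 3.62 for Cxcl10, 2.55 and 3.19 for Cxcl2, 2.24 and 3.17 for Tnf, 1.15 and 1.24 for Ccl4, 0.30 and 0.37 for Ccl9, -3.62 and -3.22 for Ccl5, and -2.39 and -2.14 for Ltb; Ccl3 ran between 0.01 and 0.17, Ccl6 between 0.07 and 0.95, and Il1b between -0.61 and 3.34 (2.30 with voom).

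With the TMRM-high libraries summed into 1, which leaves the spread to be taken from the TMRM-low libraries, 86 genes were higher and 42 lower (0.629% and 0.307%), in place of 798 and 700. Of the members 1 was then higher, of other chemokines 1 higher and 0 lower, of other cytokines 0 and 0, of receptors 0 lower, of processing genes 0 and 0, and of regulators 1 lower; fewer samples enter that fit. DESeq2 called 1324 genes higher and 1337 lower, with 3 processing genes higher and 6 regulators lower. At an adjusted p below 0.10, 1138 genes were lower, 2 receptors and 3 processing genes higher and 6 regulators lower. Without a filter, with a mean count of at least 50 and with voom, 1 other chemokine and 1 other cytokine were higher. Cxcl1, Il6 and Ifnb1 lay below the mean count of 50 and so did not enter that fit. Without a filter and with voom they entered the fit but did not pass, and the cause was not tested. Without a filter and with voom, 2 processing genes were higher.

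Samples of the same number did not deviate together (r = -0.0139, 0.0165 and 0.0210). These values show no pairing by number but cannot exclude it, since the TMRM-high libraries varied little among themselves. With the replicate block 582 genes were higher and 449 lower. In that fit 4 members were higher (Ccl9 not passing), 1 other chemokine and 1 other cytokine higher, and 2 other cytokines lower. With 1 library left out, the counts ranged over 250 to 1398 higher and 181 to 1174 lower for all genes, 3 to 5 and 2 to 2 for members, 1 to 3 and 0 to 2 for other chemokines, 0 to 4 and 0 to 6 for other cytokines, 0 to 4 and 1 to 2 for receptors, 0 to 4 and 0 to 1 for processing genes, and 4 to 6 and 2 to 5 for regulators; the lowest counts over all genes came without a TMRM-high library. Cxcl1, Il6 and Ifnb1 are limited by depth, with 1 to 4 counts in the TMRM-low group, and Il1b by the spread between TMRM-low libraries.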
